A study of Mus musculus with 18 samples.

Results

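The 10 genes described here encode the LPS-binding partners of Toll-like receptor 4 (Cd14 and Ly96), the adaptor proteins that its intracellular domain recruits (Myd88, Tirap, Ticam1 and Ticam2) and the interleukin 1 receptor-associated kinases (Irak1, Irak2, Irak3 and Irak4). They were chosen by name from the 20999 protein-coding genes of the deposited comparison tables, and each was found by its Ensembl identifier among the 38887 genes measured in every library. RNA was sequenced from bone marrow-derived macrophages (BMMs) of female C57BL/6J mice, cultured with M-CSF and kept either without further treatment or for 4 h with lipopolysaccharide (LPS) at 100 ng/ml. LPS is part of the outer membrane of Gram-negative bacteria. There were 3 preparations for each of 3 genotypes in each treatment, 18 libraries in all. WT was the Lyz2-Cre line, in which Cre recombinase is driven by the endogenous Lyz2 promoter of myeloid cells. All 3 genotypes are thus described as carrying Cre, although the level of Lyz2 sets WT apart from the others, as given below. GILZ KO mice additionally bear loxP sites around exon 6 of Gilz (Tsc22d3), which encodes the glucocorticoid-induced leucine zipper (GILZ), and GILZ TG mice bear a Gilz-1 cDNA in the ROSA26 locus behind a loxP-flanked stop cassette. Both changes depend on Cre activity and are thus limited to cells that have expressed Lyz2. The age of the mice behind each library is not given in the labels.

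Toll-like receptor 4 (TLR4) detects LPS at the cell surface with the help of CD14, which carries single LPS molecules, and of MD-2, the product of Ly96, which holds LPS in a pocket and bridges a pair of receptors. Activated TLR4 first binds TIRAP and MyD88, and MyD88 assembles IRAK4 with IRAK1 or IRAK2 into the Myddosome, which leads to NF-κB and MAP kinase activation. After uptake into endosomes, TLR4 uses TRAM (Ticam2) and TRIF (Ticam1) instead, which leads to type I interferon. IRAK3, also called IRAK-M, is mostly expressed in monocytes and macrophages and is known as a brake on this pathway that is involved in endotoxin tolerance.

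Libraries held 14583055 (GILZ KO replicate 2 after LPS) to 38557029 (GILZ TG replicate 1 after LPS) reads on genes, with a median of 24450362. Between 146 and 326 reads fell on Ly96 in each library and between 168 and 379 on Ticam2, whereas Cd14 had 12700 to 44888, so the former are the least precisely counted of the 10 genes. Without treatment, Tsc22d3 was lowest in GILZ KO (2.34 TPM), at 16.5 TPM in WT and highest in GILZ TG (155.9 TPM), as the names of the genotypes say. After LPS the order held, but WT at 5.15 TPM lay closer to GILZ KO at 2.91 TPM (GILZ TG had 131.7 TPM), and the difference between GILZ KO and WT was not called (log2 fold change -0.69, adjusted p = 0.15 from edgeR). The 6 macrophage markers examined (Adgre1, Csf1r, Cd68, Itgam, Fcgr1 and Mertk) were detected in every group, with sums of 2928 to 3582 TPM. GILZ TG replicates 1 and 2 stood apart from the other libraries by markers of other cells. In these, 8 neutrophil-lineage markers summed to 187 and 482.6 TPM without treatment, compared with 68.3 TPM in replicate 3 and 20.7 to 77.2 TPM in the WT and GILZ KO libraries of both treatments, and 7 stromal fibroblast markers summed to 100.7 and 115 TPM, compared with 9.75 TPM in replicate 3. The 6 B cell markers summed to 91.5 and 153 TPM in them and to at most 35.9 TPM in the other untreated libraries. Ly6g, a neutrophil marker, was listed at 0 in all WT and GILZ KO libraries, and the T cell markers Cd3e, Cd3d and Cd8a in all 18 libraries. Lyz2 itself had a mean of 12840 TPM in WT without treatment, whereas GILZ KO had 33.6 TPM and GILZ TG 32.99 TPM, so both genotypes also differed from WT at the Cre locus, and a share of this in a difference from WT cannot be told apart from that of GILZ. In RNA of whole cultures, fewer cells of a type and less RNA per cell cannot be told apart either.

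The members of the IRAK family differ in a short stretch of the kinase domain, the catalytic loop, in which active kinases carry an aspartate. This stretch is shown because the family splits in the same way in its response to LPS below. In 39 coding bases of 1 GENCODE transcript per gene, given 5′ to 3′ on the coding strand, the capitals mark the codon at the place of that aspartate. In Irak4 (gene at chr15:94543643-94581815 of GRCm38, plus strand) and Irak1 (chrX:74013914-74023918, minus strand) it codes for aspartate, and in Irak2 (chr6:113638467-113695026, plus strand) and Irak3 (chr10:120141648-120202130, minus strand) for asparagine. All stretches are exonic and run across an exon junction.
Irak4: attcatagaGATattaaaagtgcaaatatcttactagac
Irak1: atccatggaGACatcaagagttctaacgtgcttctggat
Irak2: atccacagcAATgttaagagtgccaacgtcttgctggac
Irak3: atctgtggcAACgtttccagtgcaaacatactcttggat
Irak2 and Irak4 shared the most bases of any pair, 28 of 39, and Irak3 and Irak4 the fewest, 21 of 39.

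The bases just upstream of the transcription start are shown for Irak2, Myd88 and Irak3, which responded most strongly to LPS, and for Irak1, which was lower after LPS. They are taken from RefSeq (GRCm38.p6) on the strand of the gene and end at its start, except for Myd88, where 23 bases that GENCODE places in an exon were left out. Capitals mark matches to the motifs searched on both strands (the one of Irak3 reads on the opposite strand), which were NF-κB, AP-1 (TGANTCA), a pair of IRF half-sites (GAAANNGAA) and ETS/PU.1 (GAGGAAGT). No matches overlapped one another. Where a gene had more than 1 start entry, the entry with the most matches was shown.
Irak2, chr6:113638347-113638466, plus strand: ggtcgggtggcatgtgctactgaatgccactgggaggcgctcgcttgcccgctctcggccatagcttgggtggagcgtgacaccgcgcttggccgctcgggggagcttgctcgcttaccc
Myd88, chr9:119340042-119340138, minus strand: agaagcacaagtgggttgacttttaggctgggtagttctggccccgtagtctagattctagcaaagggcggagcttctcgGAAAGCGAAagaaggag
Irak3, chr10:120202131-120202250, minus strand: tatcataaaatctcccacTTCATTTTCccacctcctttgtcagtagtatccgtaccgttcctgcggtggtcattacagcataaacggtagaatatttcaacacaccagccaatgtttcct
Irak1, chrX:74023922-74024041, minus strand: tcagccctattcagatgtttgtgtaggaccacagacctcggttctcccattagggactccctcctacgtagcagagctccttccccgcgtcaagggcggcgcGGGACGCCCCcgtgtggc
In windows from 250 bases before to 50 after each start, 7 of the 10 genes had 10 entries. An IRF pair was found for Myd88 at -40 to -32 from the start and for 1 of 2 entries of Irak3 at -102 to -94, a motif that 8.56% of all 32851 windows hold. The NF-κB motif was found in both entries of Irak1, at the same site (chrX:74023930-74023939), and is held by 8.46% of all windows. No member window held AP-1 (7.81% of all) or ETS/PU.1 (3.2%), and Irak2, with the strongest response, held none of the motifs. These matches describe letters in the windows and not binding.

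The levels differed more between the genes than between the genotypes, as the plot of all libraries shows. Cd14 was by far the most abundant in untreated BMMs, with 621 to 992 TPM over the 9 libraries, which is rank 209 of the 38887 genes by mean TPM (a level scaled by transcript length and by the library's total). It was followed by Myd88 at 84.5 to 100.2 TPM, Irak1 at 57.0 to 76.4 TPM and Irak2 at 35.8 to 46.4 TPM, and none of these ranges overlapped. Ly96, Irak4, Irak3, Ticam1 and Tirap came next, with medians from 25.5 TPM down to 14.7 TPM, and neighbours in this order overlapped. Ticam2 was lowest at 6.72 to 8.19 TPM. At the RNA level, CD14 thus stood far above MD-2, and MyD88 far above the other adaptors.

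**Figure D1:**
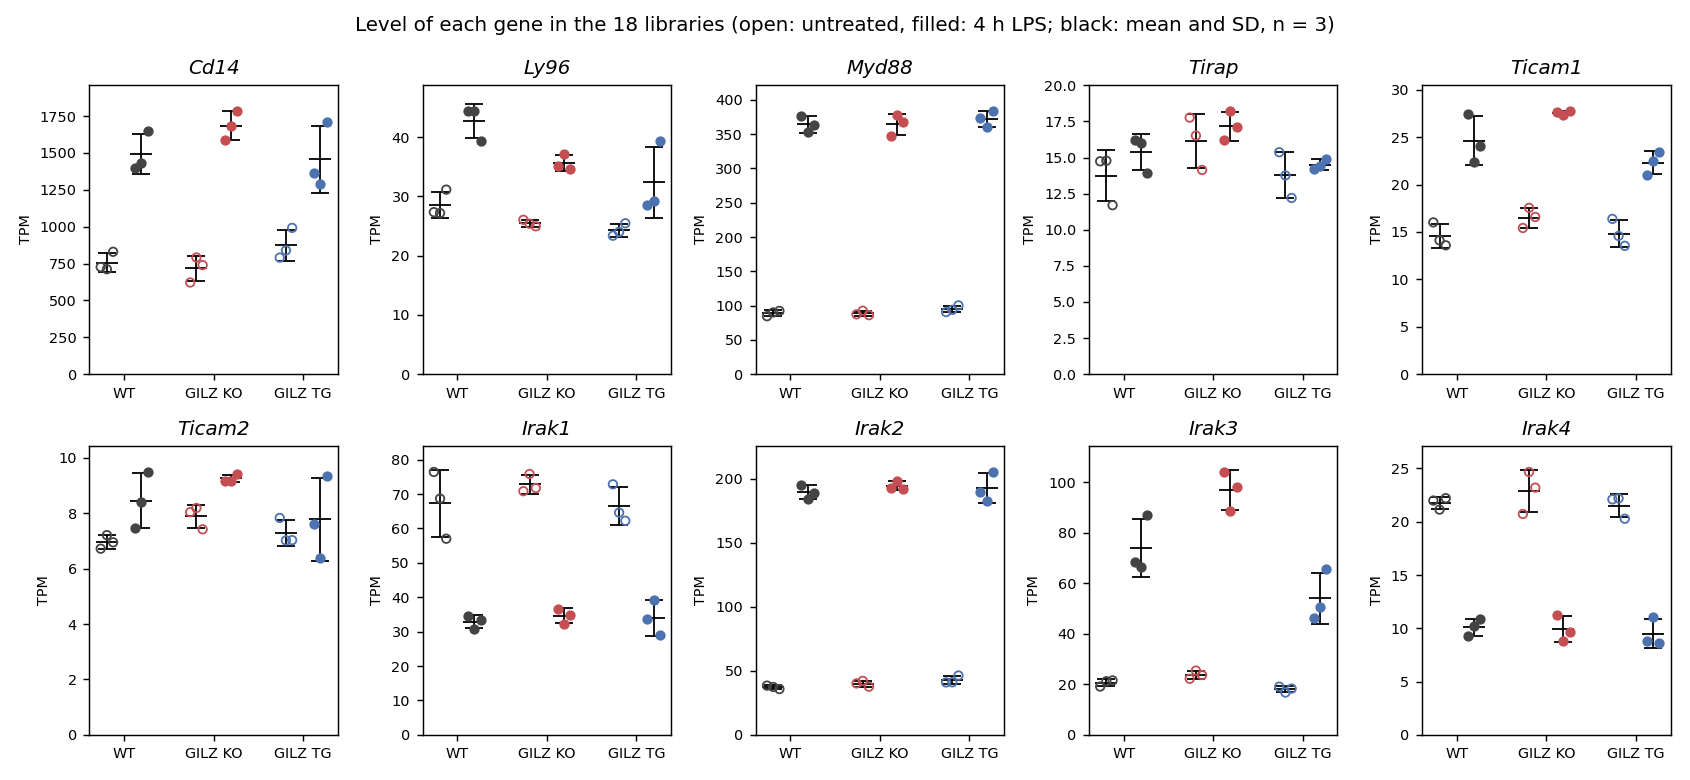
Level of each of the 10 genes in TPM (vertical axis, from 0) in the 3 libraries of each genotype, untreated (open circles) and after 4 h LPS (filled circles), with mean and SD in black. Myd88, Irak2, Irak3, Cd14 and Ticam1 lay higher in every LPS library than in every untreated one, and Irak1 and Irak4 lower. The share of all genes that separate in this way was not counted. Irak3 was highest in GILZ KO and lowest in GILZ TG in both treatments.

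Relative to the typical gene, all 10 genes were called after LPS in every genotype. For Tirap and Ticam2 the call depended on this scale, and neither was called in any genotype with counts scaled by library totals alone. Irak2, Myd88, Irak3, Cd14, Ticam1, Ly96, Ticam2 and Tirap rose, and Irak1 and Irak4 fell, relative to the typical gene (adjusted p under the threshold of 0.05 from edgeR, in a fit of all 18 libraries over 13169 genes). This has to be read against a broad response. In WT, 33.5% of all genes tested were called higher and 35.1% lower after LPS, in GILZ KO 33.2% and 35.4%, and in GILZ TG 33.6% and 35.1%. The median log2 fold change of the 10 genes was 1.3 in WT, 1.25 in GILZ KO and 1.13 in GILZ TG, compared with -0.02 for all genes in each genotype.

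The scale matters for the smaller changes. The log2 fold changes given here are normalized by TMM, which places the median gene near 0. Scaled by the library totals alone, the median gene was at -0.70 in WT, -0.66 in GILZ KO and -0.69 in GILZ TG, and the share of higher genes among all those called was then 18.9%, 18.8% and 18.5% in place of 48.9%, 48.4% and 48.9%. Likewise, the median gene had 0.638, 0.636 and 0.641 times its untreated TPM after LPS. In the plot of the LPS response both scales are shown.

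**Figure D2:**
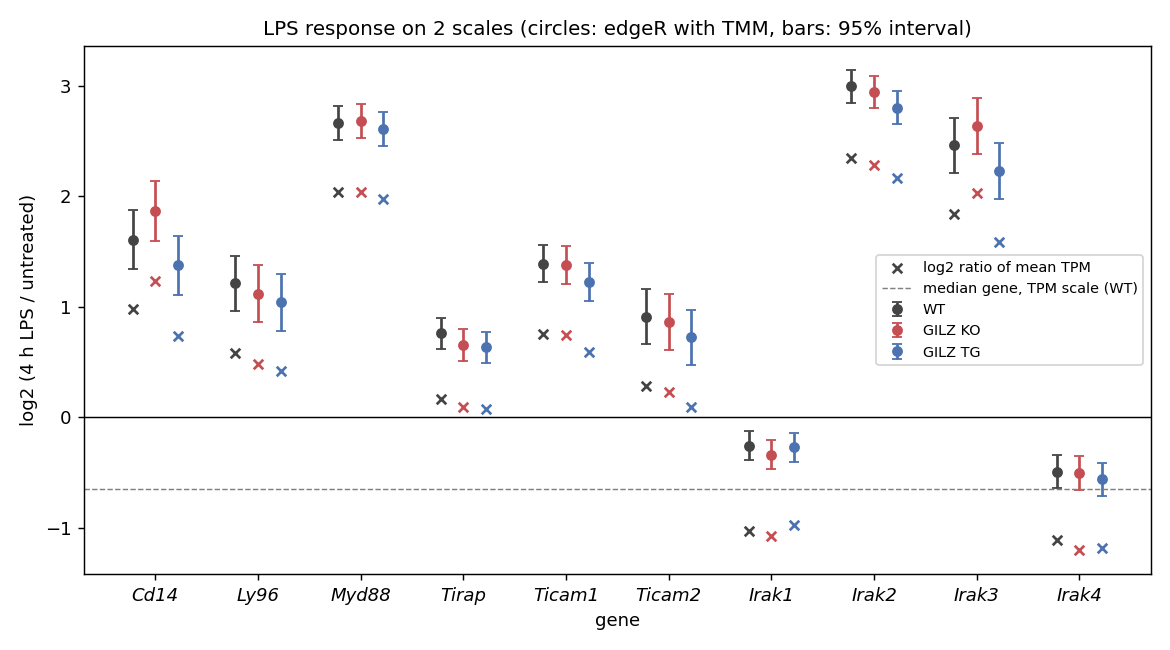
LPS response of the 10 genes as log2 of LPS over untreated (vertical axis) in WT (grey), GILZ KO (red) and GILZ TG (blue). Circles with 95% intervals are from edgeR with TMM, crosses are ratios of mean TPM, and the dashed line is the median gene of WT on the TPM scale. Irak2, Myd88 and Irak3 stood highest on both scales, and Irak1 and Irak4 lay under 0 on both and under the dashed line on the TPM scale.

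Cd14 (ENSMUSG00000051439, chr18:36725067-36726798, minus strand) encodes the co-receptor that hands LPS to MD-2. Cd14 in WT was at 726, 712 and 829.8 TPM without treatment and at 1397, 1434 and 1648 TPM after LPS. Cd14 in GILZ KO was at 621, 791 and 739.5 TPM and rose to 1586, 1681 and 1783 TPM. Cd14 in GILZ TG was at 790.2, 839 and 992 TPM and reached 1367, 1289 and 1711 TPM. The LPS libraries lay above the untreated ones in each genotype, and the step was widest in GILZ KO, which started lowest and ended highest by the mean. By mean TPM it was 1.98-fold in WT, 2.35-fold in GILZ KO and 1.67-fold in GILZ TG. On the log2 scale the fold change was 1.61 in WT (standard error 0.14, adjusted p = 1.3e-08 from edgeR), 1.87 in GILZ KO and 1.37 in GILZ TG. With this, Cd14 moved from rank 209 to rank 72 among all genes. The libraries of the genotypes overlapped in both treatments. The response in GILZ KO was not called different from that in WT or GILZ TG (adjusted p = 0.896 and 0.349 from edgeR). A fit with replicate as a block, given below, called it against GILZ TG.

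Ly96 (ENSMUSG00000025779, chr1:16688051-16709611, plus strand) encodes MD-2, without which TLR4 does not bind LPS. Ly96 in WT was at 27.4, 27.2 and 31.2 TPM before and at 44.4, 44.4 and 39.4 TPM after LPS. Ly96 in GILZ KO went from 26.1, 25.4 and 25.0 TPM to 35.1, 37.2 and 34.6 TPM. Ly96 in GILZ TG went from 23.4, 24.01 and 25.5 TPM to 28.6, 29.2 and 39.3 TPM. The treatments did not overlap in any genotype, and the rise was smaller than that of Cd14, with 1.5-fold in WT, 1.4-fold in GILZ KO and 1.33-fold in GILZ TG by mean TPM. The log2 fold change was 1.21, 1.12 and 1.04 in the same order. In both treatments all 3 WT libraries lay above all GILZ KO and GILZ TG libraries. After LPS this was by a narrow margin (39.4 TPM in the lowest of WT and 39.3 TPM in GILZ TG replicate 3). Neither genotype was called against WT for Ly96 in either treatment, and how many of all genes separate in this way was not counted.

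Among the adaptors, Myd88 (ENSMUSG00000032508, chr9:119335934-119341411, minus strand), which links TLRs and the IL-1 receptor to the IRAK kinases, showed a large and even upregulation. Myd88 in WT was at 84.5, 90.0 and 92.2 TPM and rose to 377, 352 and 363 TPM. Myd88 in GILZ KO was at 87.2, 92.5 and 86.0 TPM and rose to 347, 378 and 368 TPM. Myd88 in GILZ TG was at 90.6, 93.7 and 100.2 TPM and rose to 374, 360.02 and 384 TPM. The 9 LPS libraries of all genotypes covered a narrow range far above the untreated ones. The log2 fold change was 2.66 in WT (standard error 0.08), 2.68 in GILZ KO and 2.61 in GILZ TG.

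Ticam1 (ENSMUSG00000047123, chr17:56269319-56276786, minus strand), which encodes TRIF, had a moderate response. Its TPM rose from 13.5 to 17.5 in untreated libraries to 21.0 to 27.7 after LPS, without overlap, and the log2 fold change was 1.39 in WT, 1.38 in GILZ KO and 1.22 in GILZ TG. For Tirap (ENSMUSG00000032041, chr9:35184551-35200291, minus strand), the sorting adaptor that brings MyD88 to the membrane, and Ticam2 (ENSMUSG00000056130, chr18:46557291-46574533, minus strand), the equivalent for TRIF, the call depended on the scale. Tirap was at 11.7 to 17.8 TPM without and 13.9 to 18.2 TPM with LPS, and the treatments overlapped in every genotype. Its log2 fold change was 0.76 in WT, 0.65 in GILZ KO and 0.63 in GILZ TG relative to the typical gene, but scaled by library totals it was 0.08, 0.02 and, in the opposite direction, -0.04 (adjusted p = 0.618 from edgeR in GILZ TG). Ticam2 was at 6.72 to 8.19 TPM without and 6.37 to 9.49 TPM with LPS. Its treatments overlapped in GILZ TG, whereas each LPS library lay above each untreated one in WT and GILZ KO, and its log2 fold change of 0.91, 0.86 and 0.72 became 0.23, 0.22 and 0.05 with library totals (adjusted p = 0.0802, 0.0987 and 0.732 from edgeR). By mean TPM, Tirap was at 1.12, 1.06 and 1.05 times and Ticam2 at 1.22, 1.17 and 1.07 times its untreated level in WT, GILZ KO and GILZ TG. Ticam2 overlaps Tmed7 on the same strand, and it was the only member whose expected count had an uncertainty from shared reads (posterior SD of 2.23 to 9.56 reads). MyD88 transcripts made up 71.6% ± 2.42 of the summed adaptor TPM in untreated WT and 88.3% ± 0.20 after LPS (SD, n = 3 each), and the sum rose from 124 to 413 TPM.

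The IRAK genes divided into a pair that rose and a pair that fell. Irak2 (ENSMUSG00000060477), whose product sustains the late phase of TLR signaling, had the largest response of all 10 genes. Irak2 in WT was at 38.5, 37.4 and 35.8 TPM and rose to 195, 184 and 189 TPM. Irak2 in GILZ KO was at 40.2, 42.2 and 37.6 TPM and rose to 193, 198 and 192 TPM. Irak2 in GILZ TG was at 41.01, 41.1 and 46.4 TPM and rose to 189.9, 183 and 205 TPM. All LPS libraries lay close together, with no overlap with the untreated ones. The log2 fold change was 3.00 in WT (standard error 0.08), 2.94 in GILZ KO and 2.80 in GILZ TG, that is 5.09-, 4.87- and 4.5-fold by mean TPM.

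Irak3 (ENSMUSG00000020227) encodes the inhibitory family member. Irak3 in WT was at 19.1, 21.2 and 21.6 TPM and rose to 68.5, 66.5 and 87.1 TPM. Irak3 in GILZ KO was at 22.2, 25.5 and 23.7 TPM and rose to 104, 88.6 and 98.2 TPM. Irak3 in GILZ TG was at 19.1, 16.8 and 18.3 TPM and rose to 46.4, 50.5 and 65.6 TPM. LPS raised it in every library, and the genotypes kept their order in both treatments. The log2 fold change was 2.46 in WT (standard error 0.13), 2.64 in GILZ KO and 2.23 in GILZ TG.

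Irak1 (ENSMUSG00000031392) and Irak4 (ENSMUSG00000059883) encode the kinases that act first in the Myddosome, IRAK4 being the kinase that phosphorylates IRAK1. Irak4 in WT was at 21.99, 21.1 and 22.2 TPM and fell to 9.27, 10.2 and 10.9 TPM. Irak4 in GILZ KO was at 20.7, 24.7 and 23.2 TPM and fell to 11.3, 8.85 and 9.66 TPM. Irak4 in GILZ TG was at 22.1, 22.2 and 20.3 TPM and fell to 8.82, 11.1 and 8.61 TPM. Each LPS library was far under each untreated one, and by mean TPM 0.464, 0.434 and 0.441 times the untreated level remained in WT, GILZ KO and GILZ TG. The fall was thus larger than that of the median gene on the same scale, and relative to the typical gene the log2 fold change was -0.49 (standard error 0.08), -0.51 and -0.56.

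For Irak1 the picture was alike. Irak1 in WT went from 76.4, 68.7 and 57.0 TPM to 34.7, 30.8 and 33.3 TPM. Irak1 in GILZ KO went from 70.8, 75.8 and 71.7 TPM to 36.7, 32.4 and 34.8 TPM. Irak1 in GILZ TG went from 72.8, 64.6 and 62.2 TPM to 33.7, 39.2 and 28.9 TPM. No LPS library reached an untreated one, and 0.489, 0.476 and 0.51 times the mean TPM remained. On counts the fall beyond the typical gene was small, at -0.26 on the log2 scale in WT (standard error 0.07, adjusted p = 0.00285 from edgeR), -0.34 in GILZ KO and -0.27 in GILZ TG. The count scale takes no account of transcript length, and the mean length of the Irak1 transcripts was 3043 bases in untreated and 3349 bases in LPS-treated WT, 3064 and 3272 bases in GILZ KO and 3134 and 3288 bases in GILZ TG. The lower level of both kinase genes was kept under each alternative of scale, filter and test tried.

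The make-up of the IRAK transcripts was thereby turned over, which the plot of shares shows per library. Irak1 was the main transcript in untreated WT with 45.7% of the summed IRAK TPM, and Irak2 in LPS-treated WT with 61.9%. Irak4 went from 14.9% to 3.3% and Irak3 from 14.1% to 24.1%. The genes with asparagine in the catalytic loop, Irak2 and Irak3, together held 39.5% ± 2.54 in WT, 40.0% ± 0.67 in GILZ KO and 40.9% ± 2.71 in GILZ TG without treatment, and 86.0% ± 0.25, 86.8% ± 0.68 and 84.95% ± 2.8 after LPS (SD, n = 3 each). The summed IRAK TPM rose from 147 to 307 in WT, 159 to 336 in GILZ KO and 149 to 290.3 in GILZ TG. After LPS, the mean share of Irak3 was 28.8% in GILZ KO, 24.1% in WT and 18.6% in GILZ TG, and that of Irak2 57.9%, 61.9% and 66.4%. These shares were not tested between genotypes, and the Irak3 shares of WT and GILZ KO overlapped.

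**Figure D3:**
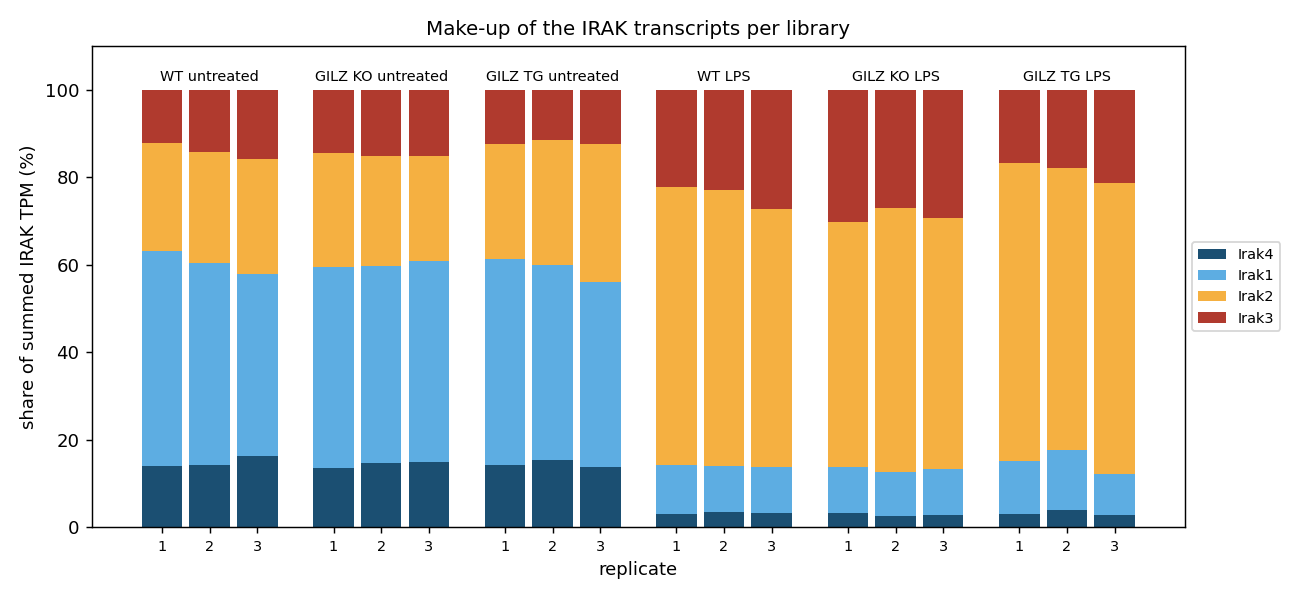
Share of each IRAK gene in the summed TPM of the 4 genes (vertical axis, percent) in each of the 18 libraries, by genotype, treatment and replicate. Irak1 and Irak4 made up most of the sum in every untreated library, and Irak2 and Irak3 in every LPS-treated library.

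Whether GILZ abundance went along with differences in these genes was tested between genotypes within a treatment (12621 genes tested in untreated and 12164 in LPS-treated BMMs). Irak3 was the only member called in any of these 6 comparisons. Without treatment it was higher in GILZ KO than in GILZ TG by 0.38 on the log2 scale (standard error 0.08, adjusted p = 0.0332 from edgeR), and after LPS by 0.81 (standard error 0.13, adjusted p = 0.0141 from edgeR). In these comparisons 1 of 10 members was called, where 4.94% and 2.6% of all genes were. Each GILZ KO library lay above each WT library, and each WT library above each GILZ TG library, in both treatments. The gaps could be small, with 19.13 TPM in the lowest untreated WT and 19.1 TPM in the highest untreated GILZ TG library. How many of all genes were ordered in this way was not counted.

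The comparisons of Irak3 with WT did not pass the threshold. GILZ KO was above WT by 0.18 without treatment (adjusted p = 0.516 from edgeR) and by 0.39 after LPS (adjusted p = 0.398), and GILZ TG was under WT by -0.20 (adjusted p = 0.307) and -0.42 (adjusted p = 0.174). No member was called in GILZ KO against WT, where 0.0951% of all genes were called without treatment and 0.0822% after LPS, or in GILZ TG against WT, where it was 0.642% and 0.46%. At an unadjusted p under 0.05 from edgeR, 1 of 10 members differed between GILZ KO and WT in each treatment, 3 between GILZ TG and WT in each, and 2 and 3 between GILZ KO and GILZ TG, while 9.6% and 9.63%, 14.1% and 15.2%, and 24.6% and 19.1% of all genes did.

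Whether the difference of Irak3 was called depended on the libraries used. Among the GILZ TG libraries after LPS it was highest in replicate 3, with 65.6 TPM against 46.4 and 50.5 TPM in replicates 1 and 2, which also held the neutrophil and stromal markers (218 and 515.8 TPM and 80.2 and 109 TPM after LPS, compared with 83.5 TPM and 10.3 TPM in replicate 3). Their part in the result was not tested. With GILZ TG replicate 3 alone set against the other genotypes, a comparison chosen after seeing the data in which the single library is assumed to vary like those of the other groups, the log2 fold change between GILZ KO and GILZ TG was 0.51 after LPS (adjusted p = 0.203 from edgeR) and 0.33 without treatment (adjusted p = 0.223 from edgeR). Leaving out single libraries, the value after LPS was between 0.72 and 0.99, and the call was lost without GILZ KO replicate 1 or 3 or GILZ TG replicate 1 or 2 (adjusted p = 0.079, 0.0659, 0.0587 and 0.0562 from edgeR). Without treatment the call was lost without any of the GILZ KO replicates, GILZ TG replicate 1 or 2 or WT replicate 2 (adjusted p of 0.0634 to 0.134), while the log2 fold change stayed between 0.33 and 0.43.

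**Figure D4:**
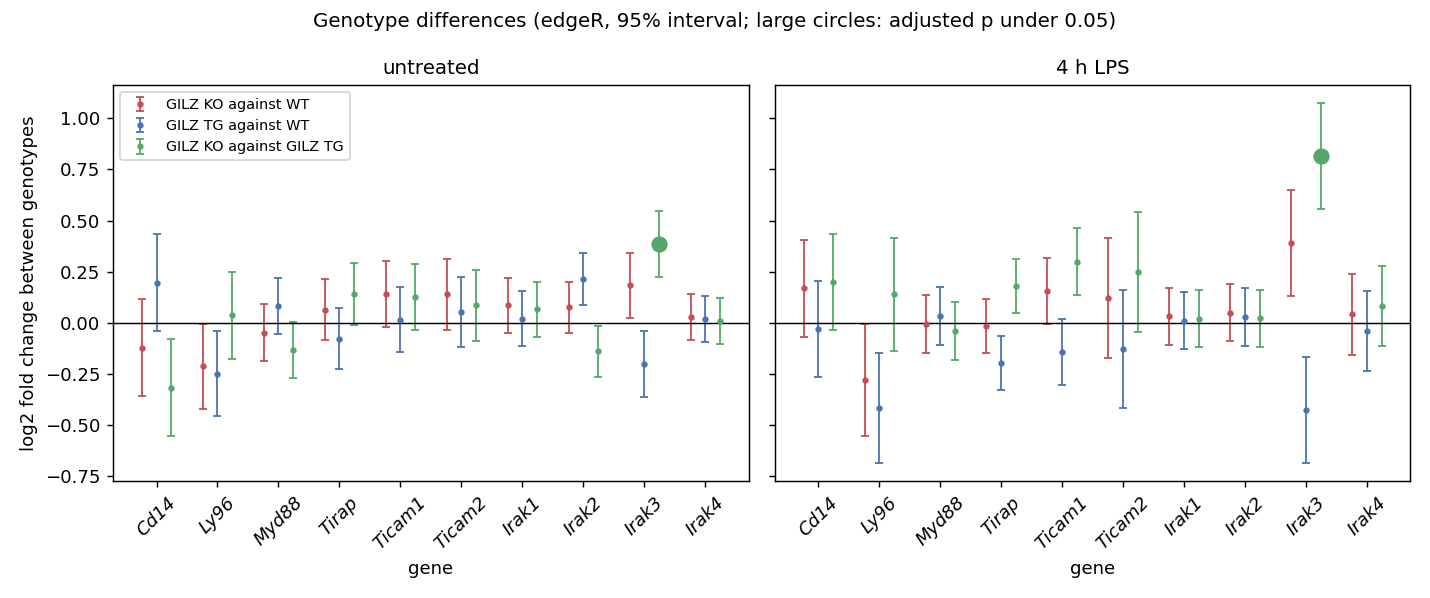
Log2 fold change between genotypes (vertical axis, with 95% intervals from edgeR) for the 10 genes in untreated (left) and LPS-treated BMMs (right), for GILZ KO against WT (red), GILZ TG against WT (blue) and GILZ KO against GILZ TG (green). The large circles mark Irak3 in GILZ KO against GILZ TG, at 0.38 and 0.81, which had the adjusted p under 0.05, and the other points were not called.

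Other members leaned to one side without being called. Ly96 was lower in GILZ TG than in WT by -0.25 without treatment (adjusted p = 0.327 from edgeR) and by -0.42 after LPS (adjusted p = 0.188 from edgeR), where the value moved to -0.59 if GILZ TG replicate 3 was left out (adjusted p = 0.00704 from edgeR) and -0.09 with that replicate alone. Irak2 was at 0.21 in untreated GILZ TG against WT (adjusted p = 0.171 from edgeR), and Tirap at -0.20 after LPS (adjusted p = 0.195 from edgeR). Between GILZ KO and GILZ TG, Cd14 was at -0.32 without treatment (adjusted p = 0.144 from edgeR). After LPS, Ticam1 was at 0.30 (adjusted p = 0.0801 from edgeR) and Tirap at 0.18 (adjusted p = 0.173 from edgeR). For Ticam1, the 3 GILZ KO libraries at 27.6, 27.4 and 27.7 TPM lay above the GILZ TG libraries at 21.0, 22.5 and 23.4 TPM.

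In contrast, some genes were closely alike between the genotypes. For Myd88 after LPS the 95% interval of the log2 fold change was -0.15 to 0.14 in GILZ KO against WT and -0.11 to 0.18 in GILZ TG against WT. For Irak2 after LPS it was -0.09 to 0.19 and -0.11 to 0.17, and for Irak1 it was -0.11 to 0.17 and -0.13 to 0.15. A difference from WT of more than about 0.19 on the log2 scale therefore lies outside the intervals of these 3 genes after LPS. These intervals are somewhat narrow for so few libraries.

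Whether the response to LPS itself differed between genotypes was tested with the interaction of genotype and treatment over all 18 libraries. It was called for 0 of 10 members in each of the 3 pairs of genotypes (GILZ KO with WT, GILZ TG with WT, GILZ KO with GILZ TG), in which 0.0152%, 0.00759% and 0.121% of all genes were called by edgeR. At an unadjusted p under 0.05 there were 0, 0 and 2 members, and these were Cd14 and Irak3, while 6.36%, 3.09% and 9.92% of all genes were under it. The response of Cd14 was larger in GILZ KO than in GILZ TG by 0.49 on the log2 scale (standard error 0.19, adjusted p = 0.349 from edgeR) and that of Irak3 by 0.41 (standard error 0.18, adjusted p = 0.439 from edgeR). All other differences between GILZ KO and GILZ TG were between -0.07 and 0.15. DESeq2 and limma called no member here either. With replicate as a block, Cd14 was called between GILZ KO and GILZ TG (0.51, adjusted p = 0.0276 from edgeR). A pairing of the replicate numbers was not established for all genotypes. In GILZ TG, untreated and LPS libraries of the same number deviated alike from their group means (correlations of 0.266, 0.397 and 0.605).

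To place the 10 genes in their pathway, 30 further genes of the TLR4 route were counted, among them the receptor itself, its chaperones and partners, TRAF and TAK1 complex members and ubiquitin ligases. After LPS, 18 were called higher and 8 lower in WT, 17 and 8 in GILZ KO and 17 and 9 in GILZ TG, beside the shares of all genes given above (33.5% higher and 35.1% lower in WT). The median log2 fold change was 0.41, 0.35 and 0.34. None of those tested was called between genotypes or in the interaction by edgeR, where 0.00759% to 4.94% of all genes were. Tlr4, the receptor, had a small response, with a log2 fold change of 0.66 in WT, 0.32 in GILZ KO and 0.72 in GILZ TG relative to the typical gene. Its mean was 36.7 ± 3.82 TPM without and 39.9 ± 4.26 TPM with LPS in WT, 39.2 ± 1.81 and 32.9 ± 2.88 TPM in GILZ KO, and for GILZ TG 33.2 ± 2.72 and 35.9 ± 5.41 TPM (SD, n = 3 each), so in GILZ KO the TPM was lower and in WT and GILZ TG higher after LPS. The largest response of the list was that of Peli1, which encodes an E3 ubiquitin ligase that modifies IRAK proteins, at 4.53, 4.37 and 4.61 and from 18.8 to 279 TPM in WT. Tab2, an adaptor of the TAK1 kinase, was at 2.01, 1.86 and 1.97, and Pik3ap1, which links TLRs to PI3 kinase, at 1.95, 1.84 and 1.79. The largest falls were those of Sarm1 (-1.89, -2.19 and -1.28) and Peli2 (-1.63, -2.38 and -1.47), both under 1 TPM by the mean of every group, and of Tab1, another TAK1 partner (-1.27, -1.29 and -1.27), from 11.3 to 3.03 TPM in WT.

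The genes whose log2(TPM + 1) followed that of Irak2 most closely over the 18 libraries, out of 13169 genes, were Myd88, H2-T10 and Tent5a, each with a Pearson r of 0.9985. For Irak4, which fell most, they were Prpf19, Cep57 and Cln6, with r of 0.9927, 0.9927 and 0.9924. The libraries share the step between the treatments, 9 on each side, and these values describe likeness over both sides together.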

How the data were processed

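RNA was poly(A)-selected, made into directional libraries and sequenced on a NextSeq500. The authors mapped the reads to GRCm38 with the grape-nf pipeline. The deposited library data give, per gene, an expected count, the estimated number of reads without normalization that the authors' pipeline computed, and TPM, which the authors scaled by effective transcript length and total. Fold changes and p-values that the authors computed with DESeq2 1.40.2 are in the deposited comparison tables and were not used. Whether counting used the strand is not given in the sources used here. Irak2, Irak3, Tirap, Myd88 and Irak4 overlap genes on the opposite strand, and Myd88 and Ticam2 a coding gene on their own.

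In R 4.3.3, expected counts were rounded, filtered (filterByExpr), scaled by TMM and fitted with edgeR 4.0.16 for its quasi-likelihood test, adjusted over all genes tested by the Benjamini-Hochberg method at 0.05. LPS responses and interactions came from 1 fit of 18 libraries, and genotype comparisons from the 9 libraries of a treatment. A log2 fold change above 0 means higher in the group named first. Comparisons that name the same genotype share its libraries. Intervals of 95% use the normal quantile of the standard error and are somewhat narrow for so few libraries. The scripts were tested on simulated data. P-values measure the spread between preparations, and with 3 against 3 an exact permutation test cannot go below 0.1. The members, the 30 pathway genes and the tests were chosen with earlier results of these data known. All members were given. Of the pathway list, Tlr4 and the 3 genes with the largest rise and fall in WT called in every genotype were named. For the strongest rise and fall among members, the 3 genes most alike by Pearson r were named. A genotype difference was given where its unadjusted p was under 0.05. Alternatives were DESeq2 1.42.0, limma 3.58.1 on log2(TPM + 1) and log2(TPM + 0.1), other size factors, library totals, no filter, a mean count of at least 50, other libraries in the fit, replicate as a block and each library left out. GILZ TG replicate 3 alone was added after seeing the data. Same-numbered untreated and LPS libraries went together in GILZ TG, but same-numbered libraries did not go together throughout. The correlation of their deviations was above 0.1 in 4 of 9 pairs of untreated and LPS libraries and in 2 of 18 pairs of genotypes. The 4 pairs were all 3 of GILZ TG (0.266, 0.397 and 0.605) and WT replicate 1 (0.264). The fits without a block took no account of a pairing. Plots used Python 3.11.15 and matplotlib 3.10.9.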

Additional observations from a re-analysis of the deposited data

How the results depend on the processing

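Of 1156 alternatives for the fold changes of single members, 1117 kept direction and side of the threshold, 31 lost and 7 gained a call, and 1 turned direction, Tirap in GILZ TG after LPS with library totals alone (-0.0389). Between 8 and 10 members were called for LPS in each genotype, 8 with library totals or limma, where Tirap and Ticam2 were not called. The number of members called in untreated GILZ KO against GILZ TG went from 1 to 0 with limma on log2(TPM + 1), with all 18 libraries in one fit and with GILZ TG replicate 3 alone, and was 0 to 1 with each library left out. After LPS it went from 1 to 2 with DESeq2, which added Ticam1 (adjusted p = 0.0496), and to 0 with GILZ TG replicate 3 alone. With each library left out it was 0 to 3, where 2 were found without WT replicate 1 and 3 (Irak3, Ticam1 and Cd14) without GILZ TG replicate 3. In GILZ TG against WT after LPS it went from 0 to 1 without a filter (Irak3, -0.43, adjusted p = 0.0286 from edgeR) and was 0 to 2 with each library left out, the 2 being Irak3 and Ly96 without GILZ TG replicate 3. The causes were not tested. A pairing of the numbers was not established (untreated and LPS libraries of the same number correlated above 0.1 in 4 of 9 cases, among them all 3 of GILZ TG), and the fit with replicate as a block changed the number of members called in 1 comparison, the difference in LPS response between GILZ KO and GILZ TG, from 0 to 1 (Cd14, 0.51, adjusted p = 0.0276 from edgeR). Depth limits Ly96 and Ticam2 most, with at most 326 and 379 reads per library. Irak4 also went down to 183 reads, in GILZ KO replicate 2 after LPS.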
